A study of Homo sapiens with 12 samples.

Results

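The genes described here are 10 genes of the RNA interference machinery: the Argonaute genes AGO1, AGO2, AGO3 and AGO4, the GW182 genes TNRC6A, TNRC6B and TNRC6C, and the Dicer complex genes DICER1, TARBP2 and PRKRA. They were listed by name, with earlier results of these data known. All 10 were found once each among the 63677 Ensembl genes of the count table and had enough reads to be tested. Their counts came from HCT116, an epithelial line from a human colon carcinoma, transfected with small interfering RNAs (siRNAs) and sequenced as polyadenylated RNA from stranded libraries. The 12 libraries formed 6 groups of 2 that the design calls biological duplicates: a mock group that received no siRNA, siControl with an siRNA that matches no known transcript, a pair of groups (siTotal1, siTotal2) whose siRNAs match every NFYA transcript, and a pair (siLong1, siLong2) whose siRNAs match only the NFYA form with the long 3′ end. Each siRNA was used at 62.5 nM, cells were seeded at 25000 per well and harvested 72 h after transfection, and every group was the same cell line. The non-targeting group rests on 1 sequence and each NFYA target on a pair of sequences, so p-values here reflect how far duplicate libraries differ and not how far siRNA sequences differ. In such bulk RNA, fewer cells that express a gene and less of its RNA per cell cannot be told apart.

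In RNA interference, Dicer cuts double-stranded RNA into short duplexes, and an Argonaute protein keeps one strand as the guide that pairs with target RNAs. GW182 proteins, the TNRC6 family, dock on Argonautes and recruit the enzymes that shorten poly(A) tails and remove caps. A transfected siRNA needs no cutting by Dicer but uses the same Argonautes as the cell's own microRNAs, which is why levels of these genes were compared between cells with and without an siRNA.

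The labels give the sense strand of the 4 NFYA siRNAs, which are shown because they are the molecules that the Argonautes of these cells were given. Capitals mark sense bases 12 to 18, whose word in a transcript pairs with bases 2 to 8 (the seed) of the guide strand.
siTotal, first listed: acuagaggcagAAGGGAAa
siTotal, second listed: uggugaaggugGACGAUUu
siLong, first listed: agugaucauugUAGGGUAa
siLong, second listed: ggucauuccuuUAGCAUCa
The labels do not say which listed sequence is number 1 or 2 of its pair, so no sequence is tied here to a single group. The sequence of the non-targeting siRNA is not used here.

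Each library held 35604197 to 49746637 counted reads, with mock the deepest group, and 17730 genes were tested. Levels are given as CPM, the counts scaled to a common library size with TMM factors, and a gene was called when the adjusted p of edgeR's quasi-likelihood test was under 0.05. NFYA, the targeted gene, stood at 55.2 and 59.1 CPM in mock and was called lower in siTotal1, siTotal2 and siLong1, by 0.27 to 0.31 on the log2 scale. In the libraries labelled siLong2, NFYA was higher than in mock, at 69.7 and 70.1 CPM, which goes against a plain reading of their label although a gene count does not measure the long form. Of the epithelial markers 5 of 7 were at 1 CPM or more in every library, as was 1 of 5 fibroblast markers, and the summed blood markers were at 0.557 CPM or less. The share of reads on mitochondrial transcripts ran from 3.83% to 6.60%, highest in the libraries labelled siLong2, and its part in any result was not tested.

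AGO4, AGO1 and AGO3 lie side by side on the plus strand of chromosome 1 (GRCh38, GENCODE 29), at 35808172 to 35857890, 35869808 to 35930528 and 35930718 to 36072500. AGO2, which encodes the Argonaute that can slice its targets, lies apart on another chromosome. TNRC6A is on chromosome 16 (24610209 to 24827632), TNRC6B on 22 (40044817 to 40335808) and TNRC6C on 17 (77959240 to 78108835). DICER1 is on chromosome 14 (95086228 to 95158010, minus strand), TARBP2 on 12 (53500921 to 53506431) and PRKRA on 2 (178431414 to 178451512, minus strand). Exons of 6 members (AGO1, AGO3, TNRC6C, DICER1, TARBP2 and PRKRA) overlap exons of a gene on the opposite strand, and whether reads were counted by strand is not known here, so reads in those stretches cannot be told apart. AGO2 has an exon overlap with a gene on its own strand (AC067931.1), which counting by strand would not separate. PRKRA and TARBP2 also have pseudogene copies (PRKRAP1 and TARBP2P1), to which reads could be assigned.

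Per kilobase of merged exons, PRKRA had the highest median level over the 12 libraries, at 12.2 CPM per kb, followed by TNRC6A (9.91), DICER1 (8.71), AGO1 (8.15) and TARBP2 (7.57). AGO2 stood at 4.39 CPM per kb, TNRC6B at 3.61, TNRC6C at 3.32, AGO3 at 2.18 and AGO4 at 1.83. The order rests on the length used: per kilobase of coding sequence, the AGO1 median (44.0 CPM per kb) came after PRKRA (51.0) and ahead of TNRC6A (21.8).

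Against mock, the 10 genes did not move as a block. Each was called in at least 1 of the 5 siRNA groups, as were 80.9% of all tested genes, and 0 were called in the same direction in every siRNA group. Higher in one siRNA group and lower in another were 4 of the 10 (AGO1, AGO2, TNRC6B and TNRC6C) and 27.5% of all genes. Over all genes tested, 1.42% were called higher and 1.09% lower in every siRNA group, so these counts are near the background. The 5 comparisons share the mock libraries.

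**Figure D1:**
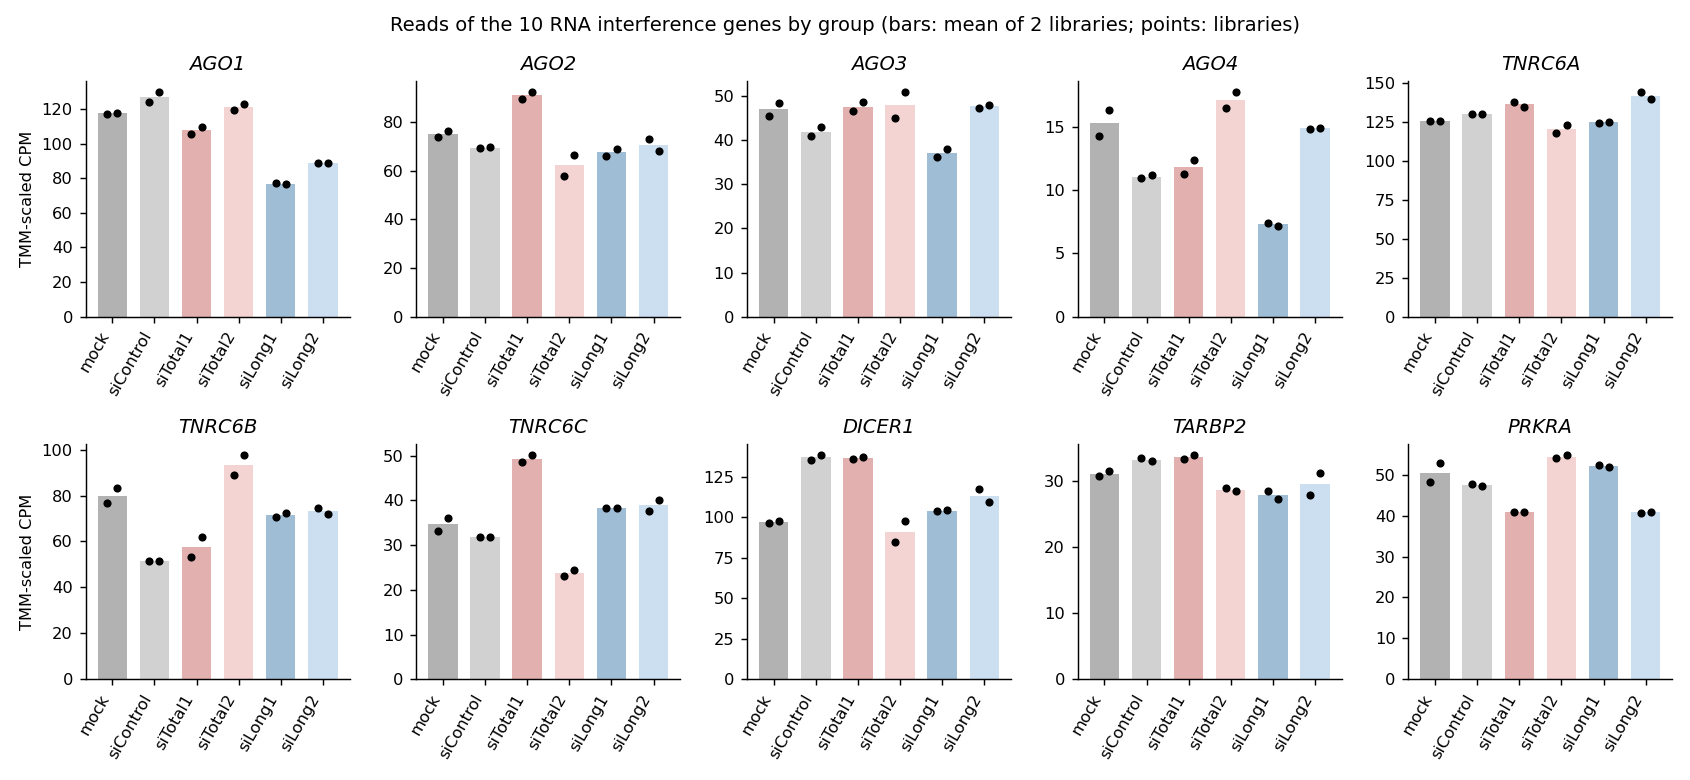
Level of each of the 10 genes in every library, as TMM-scaled CPM (vertical axis, from 0), by group (horizontal axis); bars are means of 2 libraries and points are libraries. AGO1 is lowest in siLong1 and siLong2, AGO4 in siLong1, and TNRC6B and DICER1 stand in opposite order in siControl and siTotal1.

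Among the Argonautes, AGO1 and AGO4 moved most. AGO1, which binds guides but is a poor slicer, stood at 117 and 118 CPM in mock, 124 and 130 in siControl, 106 and 109 in siTotal1, 120 and 123 in siTotal2, 77.3 and 76.5 in siLong1, and 88.8 and 88.9 in those labelled siLong2. No group's libraries overlapped another's, and both siLong groups were below all others. AGO1 fell by 0.61 on the log2 scale in siLong1 against mock (SE 0.04, adjusted p = 1.2e-14). In the libraries labelled siLong2 AGO1 fell by 0.40 (SE 0.04, adjusted p = 3.7e-10). It fell by 0.13 in siTotal1 (adjusted p = 0.015), rose by 0.11 in siControl (adjusted p = 0.028), and was at 0.05 in siTotal2 (adjusted p = 0.45). The call in siTotal1 ended when only those 2 groups were fitted (adjusted p = 0.056) and without the second mock library (0.068). That in siControl ended with upper-quartile scaling (0.066), with no filter on low counts (0.058) and without 7 of the 12 libraries in turn (adjusted p from 0.050 to 0.31, all above the threshold before rounding).

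AGO4, the least abundant Argonaute per length, stood at 14.3 and 16.3 CPM in mock, 10.9 and 11.2 in siControl, 11.3 and 12.3 in siTotal1, 16.5 and 17.7 in siTotal2, 7.42 and 7.18 in siLong1, and 14.8 and 14.9 in those labelled siLong2. The siLong1 libraries were the lowest of all, and the siLong2 libraries lay between those of mock. AGO4 fell by 1.06 in siLong1 against mock (log2, a level 0.478 times that of mock, SE 0.09, adjusted p = 1.1e-12), by 0.47 in siControl (SE 0.08, adjusted p = 1.7e-05) and by 0.37 in siTotal1 (SE 0.08, adjusted p = 3.7e-04). In siTotal2 it was at 0.16 (adjusted p = 0.12, but 0.26 with adjusted p = 0.048 without the second mock library) and in the libraries labelled siLong2 at -0.04 (adjusted p = 0.72). Its group means spanned 2.34-fold, the widest range of the 10 genes on the log2 scale, and 94.8% of the 9125 genes at or above the lowest member in mean CPM had a smaller range. Among the genes whose log2 CPM was most like that of AGO4 over the 12 libraries were NT5DC1 (Pearson r = 0.99, Spearman rho = 0.97) and UROS (0.97 and 0.90). They were chosen by that likeness from tested genes with a symbol and a mean log2 CPM above a set floor, so the values are a description.

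AGO3, the neighbour of AGO1, stood at 45.5 and 48.5 CPM in mock, 40.9 and 43.0 in siControl and 36.2 and 38.1 in siLong1. In siTotal1, siTotal2 and the libraries labelled siLong2 it lay between 44.9 and 50.9 CPM and overlapped mock. AGO3 fell by 0.34 in siLong1 against mock (log2, SE 0.06, adjusted p = 5.7e-06) and by 0.16 in siControl (SE 0.06, adjusted p = 0.021), a call that ended with DESeq2 (adjusted p = 0.060), without the second mock library (0.20) and without the first siControl library (0.16). All 3 Argonaute genes of chromosome 1 were thus lower in siLong1 than in mock, while in the libraries labelled siLong2 AGO1 alone of them was called. The fall in siLong1 was not limited to these neighbours. AGO2, on another chromosome, was also called lower there (-0.15 on the log2 scale, adjusted p = 0.016), a call that some runs given below ended. Whether the shared position played a part was not tested.

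AGO2 stood at 73.9 and 76.2 CPM in mock, 69.3 and 69.7 in siControl, 89.6 and 92.2 in siTotal1, 57.6 and 66.6 in siTotal2, 66.1 and 69.0 in siLong1, and 73.2 and 68.1 in those labelled siLong2. The siTotal1 libraries were above every other library and those of siTotal2 below mock. AGO2 rose by 0.28 in siTotal1 against mock (log2, SE 0.05, adjusted p = 5.1e-05) and fell by 0.27 in siTotal2 (SE 0.05, adjusted p = 1.8e-04), although both siRNAs target all NFYA transcripts. It fell by 0.15 in siLong1 (adjusted p = 0.016, but 0.052 with DESeq2, 0.097 without the second mock library and 0.094 without the first siLong1 library) and was at -0.11 in siControl (adjusted p = 0.096, but 0.047 with upper-quartile scaling and 0.049 without either siTotal2 library) and -0.09 in the libraries labelled siLong2.

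The summed per-length level of the 4 Argonautes was 17.5 ± 0.4 CPM per kb in mock (SD, n = 2). The siControl sum was 17.0 ± 0.4, that of siTotal1 17.4 ± 0.5 and that of siTotal2 17.3 ± 0.9. The siLong1 sum was 12.6 ± 0.1 and the siLong2 sum 15.2 ± 0.2, both below the range of the other groups. The make-up of the sum also differed. AGO1 held 48.3% ± 1.0 of it in mock, 53.7% ± 0.4 in siControl and 42.2% ± 0.6 in the libraries labelled siLong2. The AGO2 share was 27.1% ± 0.1 in mock, 33.1% ± 0.2 in siTotal1, 33.9% ± 0.7 in siLong1 and 22.7% ± 1.2 in siTotal2. No test was made of these shares, and the depth behind them is that of the counts (at least 263 reads for a gene in a library).

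**Figure D2:**
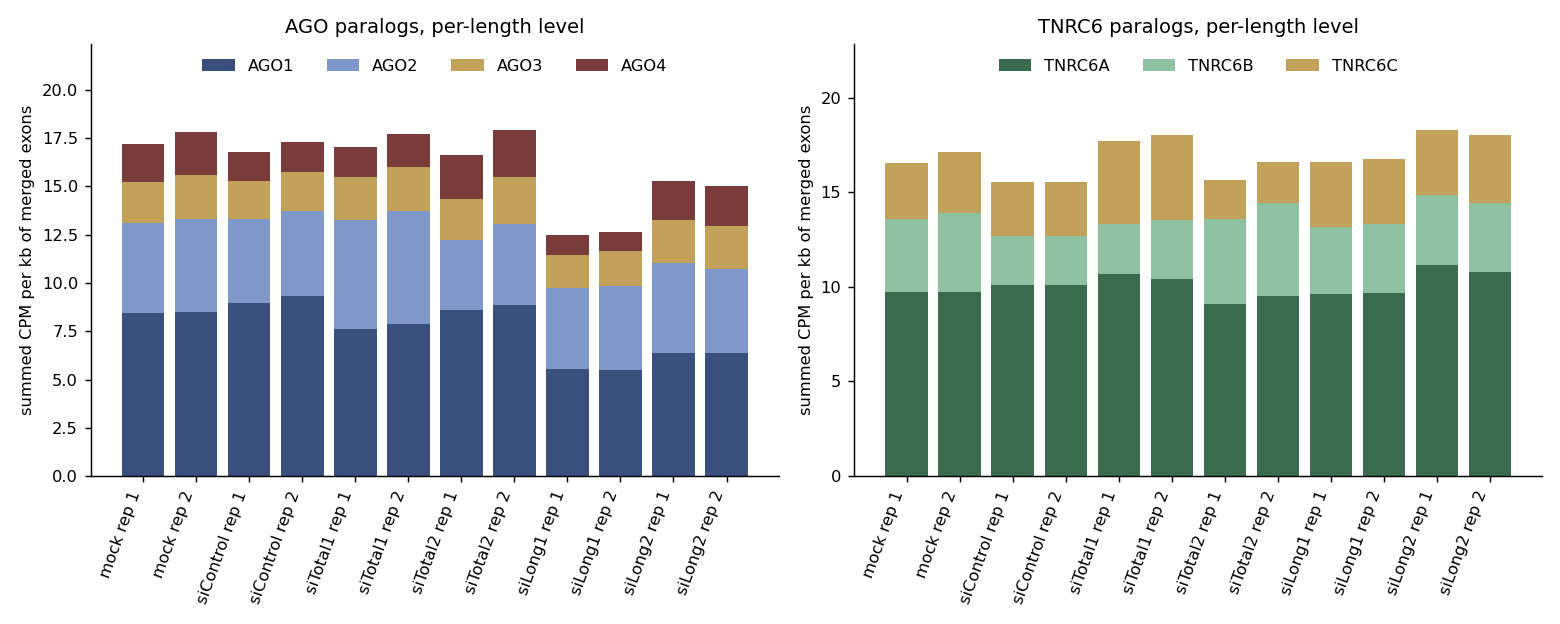
Summed level of the Argonaute genes (left) and the TNRC6 genes (right) in each library, in CPM per kb of merged exons (vertical axes, from 0), with colours for the paralogs. The Argonaute sum is lowest in siLong1, at 12.6 CPM per kb against 17.5 in mock, while the TNRC6 sum stays between 15.5 and 18.3 CPM per kb as its parts shift.

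Among the GW182 genes, TNRC6B and TNRC6C moved most and TNRC6A least. TNRC6B stood at 76.8 and 83.2 CPM in mock, 51.6 and 51.7 in siControl, 53.2 and 62.1 in siTotal1, 89.1 and 97.7 in siTotal2, 70.5 and 72.4 in siLong1, and 74.5 and 72.1 in those labelled siLong2. The siControl and siTotal1 libraries were the lowest and those of siTotal2 the highest. TNRC6B fell by 0.63 in siControl against mock (log2, SE 0.06, adjusted p = 5.9e-09) and by 0.47 in siTotal1 (SE 0.06, adjusted p = 6.4e-07), and rose by 0.22 in siTotal2 (SE 0.06, adjusted p = 0.0048). The siTotal2 call ended without the first mock library (adjusted p = 0.080) or the second siTotal2 library (0.14 on the log2 scale, adjusted p = 0.12). In siLong1 TNRC6B fell by 0.16 (adjusted p = 0.024), which ended without the second mock library (-0.11, adjusted p = 0.22) or the first siLong1 library (adjusted p = 0.071), and with siLong2 it was at -0.12 (adjusted p = 0.083). The siLong2 value was called when only those groups were fitted (-0.11, adjusted p = 0.026) and without the first mock library or any one siTotal library (-0.13 to -0.18, adjusted p from 0.017 to 0.038).

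TNRC6C stood at 33.1 and 36.04 CPM in mock, 31.8 and 31.8 in siControl, 48.5 and 50.1 in siTotal1, 23.0 and 24.4 in siTotal2, 38.3 and 38.4 in siLong1, and 37.7 and 40.0 in those labelled siLong2. The siTotal groups held the highest and the lowest values, and the siLong groups overlapped each other. TNRC6C rose by 0.51 in siTotal1 against mock (log2, SE 0.06, adjusted p = 1.9e-09) and fell by 0.54 in siTotal2 (SE 0.06, adjusted p = 7.97e-09). Its rise in siLong1 was 0.15 (adjusted p = 0.026), and in siLong2 0.17 (adjusted p = 0.013). Without the first mock library these were 0.08 (adjusted p = 0.36) and 0.11 (adjusted p = 0.21). The siLong1 call also ended with DESeq2 (0.057), with no filter on low counts (0.069) and without either siLong1 library, the second siControl library or either siLong2 library (adjusted p from 0.0504 to 0.14), and the siLong2 call without its second library (0.19).

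TNRC6A was the steadiest of the 10 genes, between 118 CPM in a siTotal2 library and 144 CPM in one labelled siLong2, and 7.02% of the same 9125 genes had a smaller range of group means. It rose by 0.17 in the libraries labelled siLong2 against mock (log2, SE 0.04, adjusted p = 4.5e-04) and by 0.12 in siTotal1 (adjusted p = 0.021). The siTotal1 call ended when only those groups were fitted (0.091), with upper-quartile scaling (0.18), with no filter on low counts (0.068), and without any library but the second of siTotal1 (adjusted p from 0.060 to 0.25, with 0.07 on the log2 scale without the first siTotal1 library). The summed per-length level of the 3 TNRC6 genes was 16.8 ± 0.4 CPM per kb in mock (SD, n = 2), 15.5 ± 0.001 in siControl and 18.1 ± 0.2 in the libraries labelled siLong2. The TNRC6B part of that sum in mock was 23.7% ± 0.8. It was smaller in siControl (16.6% ± 0.02) and siTotal1 (16.1% ± 1.6), and larger in siTotal2 (28.9% ± 0.7). Per kilobase of coding sequence the TNRC6B part was 34.7% in mock, 25.4% in siControl, 24.9% for siTotal1 and 40.9% for siTotal2, in the same order against mock. TNRC6C held 24.8% ± 0.3 in siTotal1 and 13.2% ± 0.02 in siTotal2.

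DICER1, the nuclease that cuts precursor microRNAs, stood at 96.6 and 97.7 CPM in mock, 136 and 139 in siControl, 136 and 137 in siTotal1, 84.8 and 97.4 in siTotal2, 104 and 104 in siLong1, and 117 and 110 in those labelled siLong2. The siControl and siTotal1 libraries were the highest and overlapped each other, and siTotal2 overlapped mock. DICER1 rose by 0.50 in siControl against mock (log2, SE 0.05, adjusted p = 1.6e-10), by 0.49 in siTotal1 (SE 0.05, adjusted p = 2.6e-10) and, in the libraries labelled siLong2, by 0.22 (SE 0.05, adjusted p = 1.9e-04). It was at 0.10 in siLong1 (adjusted p = 0.084, and 0.019 when only those groups were fitted) and at -0.09 in siTotal2 (adjusted p = 0.18, but -0.21 with adjusted p = 0.0051 without the second siTotal2 library). The groups in which DICER1 was highest, siControl and siTotal1, were those in which TNRC6B was lowest.

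The genes of the double-stranded RNA binding partners of Dicer moved less. TARBP2, whose protein TRBP helps Dicer hand duplexes to Argonaute, lay between 27.2 and 34.0 CPM in all libraries. It was called against mock in siLong1 alone, where it fell by 0.16 (log2, SE 0.06, adjusted p = 0.026), a call that ended with DESeq2 (adjusted p = 0.091), without the second mock library (0.11) and without the second siLong1 library (0.14). PRKRA, whose protein PACT also activates the kinase PKR, stood at 48.1 and 52.8 CPM in mock, 47.6 and 47.3 in siControl, 41.0 and 40.9 in siTotal1, 54.0 and 54.8 in siTotal2, 52.5 and 52.0 in siLong1, and 40.7 and 40.8 in those labelled siLong2. One sequence of each NFYA pair gave low PRKRA and the other did not. PRKRA fell by 0.30 in siTotal1 against mock (log2, SE 0.05, adjusted p = 1.3e-05) and, in the libraries labelled siLong2, by 0.31 (SE 0.05, adjusted p = 6.0e-06), and was at 0.11 in siTotal2 (adjusted p = 0.11, but 0.046 with upper-quartile scaling, and 0.17 on the log2 scale with adjusted p = 0.032 without the second mock library) and 0.05 in siLong1 (adjusted p = 0.43).

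**Figure D3:**
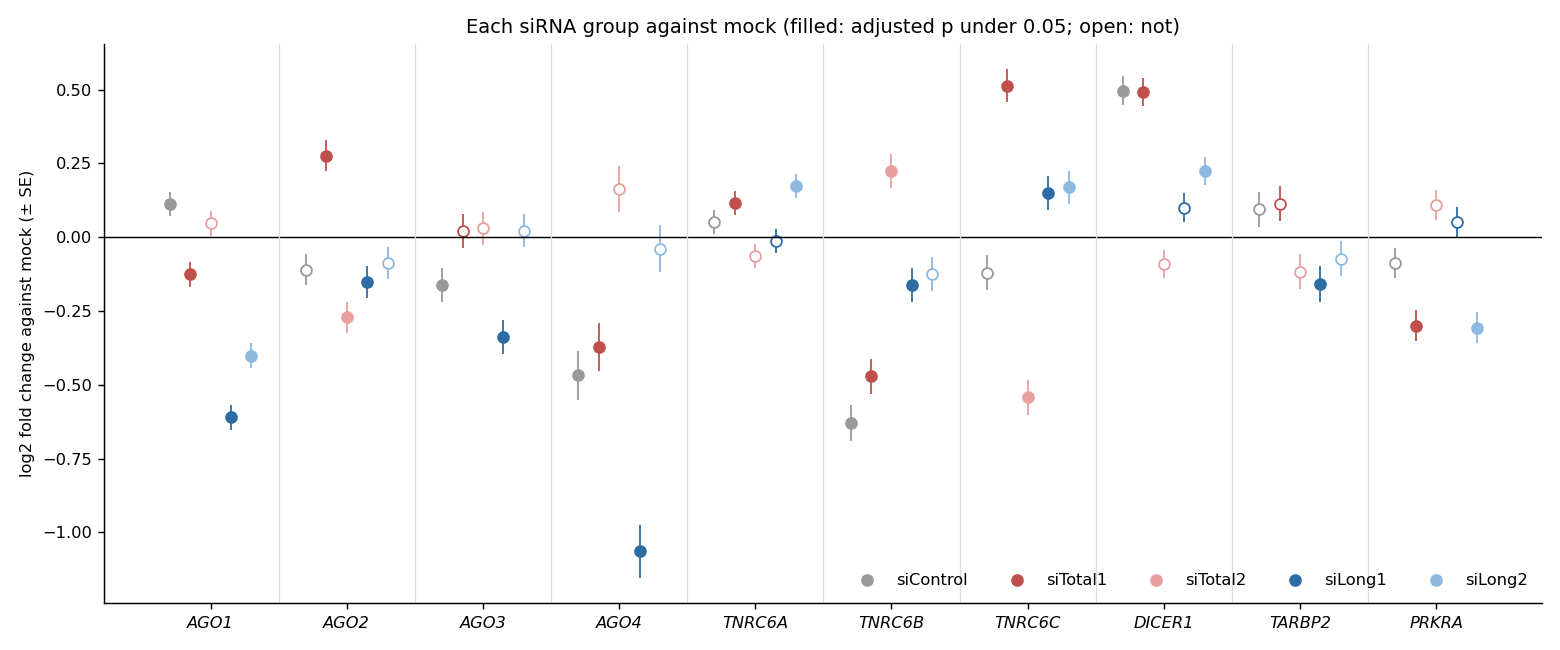
Log2 fold change of each gene in each siRNA group against mock (vertical axis, with SE), coloured by siRNA group; filled points have an adjusted p under 0.05. Points of one gene lie on both sides of 0 for most genes, from -1.06 for AGO4 in siLong1 to 0.51 for TNRC6C in siTotal1.

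Counted by group against mock, 5 of the 10 genes were called in siControl (2 higher and 3 lower), where 39.8% of all tested genes were called (20.3% higher and 19.5% lower). The count was 8 in siTotal1 (4 higher and 4 lower, background 40.9%, of which 22.1% higher and 18.7% lower), 3 in siTotal2 (1 and 2, background 26.7%, or 14.1% and 12.6%), 7 in siLong1 (1 and 6, background 52%, or 26% and 26.1%) and 5 in siLong2 (3 and 2, background 50.3%, or 25.2% and 25%). The widest gap to the background was in siTotal1, and the median size of change there was 0.29 (log2, either direction) for the 10 genes against 0.16 for the 9117 genes at or above the lowest member in edgeR's average log CPM. In the other groups the 10 genes changed about as much as those genes or less, at 0.12 against 0.16 in siControl, 0.11 against 0.11 in siTotal2, 0.16 against 0.21 in siLong1 and 0.15 against 0.22 in siLong2. These counts also shifted when 1 library was left out. With DESeq2 the siLong1 count was 4, and the share of all genes called in that run is not given here.

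The mean of the 5 siRNA groups against mock had 5 of 10 genes called, where 38.4% of all genes were called (18.3% higher, 20% lower). Of these groups 4 carried NFYA siRNAs, so this contrast mixes the NFYA target with transfection of an siRNA as such. DICER1 rose by 0.24 (log2, SE 0.04, adjusted p = 2.7e-06). AGO4 fell by 0.36 (SE 0.06), TNRC6B by 0.23 (SE 0.05), AGO1 by 0.20 (SE 0.03) and PRKRA by 0.11 (SE 0.04, adjusted p = 0.029). In siControl, the group with an siRNA but no NFYA target, DICER1, AGO4 and TNRC6B were called in these same directions. There AGO1 went the other way (0.11, adjusted p = 0.028) and PRKRA was not called (-0.09, adjusted p = 0.18). The siControl group is part of this mean and shares the mock libraries, so its directions are not independent of it. In siTotal2, TNRC6B was called higher than in mock (0.22), and AGO4 (0.16) and DICER1 (-0.09) were not called. For each of the 5 genes called in the mean, the siRNA libraries overlapped the mock libraries. PRKRA was no longer called without the siLong2 libraries (-0.06, adjusted p = 0.31), with DESeq2 (0.077) or without the second mock library (-0.04, adjusted p = 0.61), and was at -0.18 without the first. AGO2 (-0.10, adjusted p = 0.024) and AGO3 (-0.12, adjusted p = 0.023) were called lower without the second siTotal2 library. When each siRNA sequence counted as 1 sample, edgeR called 0 of 20185 genes (160 at an unadjusted p under 0.05), and 0 of the 10 genes had an unadjusted p under 0.05.

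The mean of the 4 NFYA siRNA groups against siControl had 5 of 10 genes called, where 48.9% of all genes were called (22.9% higher, 26% lower). AGO1 fell by 0.39 (log2, SE 0.03, adjusted p = 1.8e-12), and each of its 8 NFYA siRNA libraries was below both siControl libraries. TNRC6B rose by 0.50 (SE 0.05, adjusted p = 7.4e-09), with every NFYA siRNA library above siControl. DICER1 fell by 0.32 (SE 0.04, adjusted p = 7.6e-09), while siTotal1 overlapped siControl. TNRC6C rose by 0.19 (SE 0.05, adjusted p = 8.0e-04) and TARBP2 fell by 0.15 (SE 0.05, adjusted p = 0.0069), both with overlapping libraries, and the TARBP2 call ended without the first siControl library (adjusted p = 0.056). For all 5 called genes the mock mean lay on the same side of siControl as the NFYA siRNA groups did. With each siRNA sequence as 1 sample, edgeR called 0 of 20093 genes (927 at an unadjusted p under 0.05, 0 of them among the 10 genes).

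Between the targets, siTotal against siLong, 6 of 10 genes were called, where 53.4% of all genes were called (28.1% higher, 25.3% lower). AGO1 was higher in siTotal by 0.47 (log2, SE 0.03, adjusted p = 1.2e-15), and its siTotal and siLong libraries did not overlap. AGO4 (0.45, SE 0.06), AGO3 (0.18, SE 0.04), AGO2 (0.12, SE 0.04) and TARBP2 (0.11, SE 0.04) were called higher and TNRC6C lower (-0.17, SE 0.04), all with overlapping libraries. The AGO2 call ended without the second library of siTotal2 (0.06, adjusted p = 0.18) or of siLong2 (adjusted p = 0.075). The TARBP2 call ended with DESeq2 (0.12), with either other scaling (0.052), with no filter on low counts (0.051) and without the second siTotal1, first siTotal2, second siLong1 or first siLong2 library (adjusted p from 0.057 to 0.24, and 0.07 on the log2 scale without the last). Left without the libraries labelled siLong2, AGO4 was at 0.96, AGO3 at 0.36 and AGO1 at 0.57, and PRKRA turned from 0.03 (adjusted p = 0.49) to -0.15 (adjusted p = 0.0081).

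Sequences to the same target differed in 9 of 10 genes for siTotal1 against siTotal2, where 43.9% of all genes were called (23.3% higher, 20.6% lower). The median size of change was 0.47 (log2) for the 10 genes and 0.17 for the 9117 genes at or above the lowest member in average log CPM. TNRC6C was higher in siTotal1 by 1.06 (SE 0.06, adjusted p = 6.2e-17), DICER1 by 0.58 (SE 0.05, adjusted p = 5.2e-12) and AGO2 by 0.55 (SE 0.05, adjusted p = 2.2e-10). TNRC6B was lower by 0.70 (SE 0.06, adjusted p = 8.5e-10), AGO4 by 0.54 and PRKRA by 0.41. TARBP2 (0.23), TNRC6A (0.18) and AGO1 (-0.17) were also called, and AGO3 was at -0.01 (SE 0.06, adjusted p = 0.92). NFYA itself stood within 0.04 (SE 0.05, adjusted p = 0.58) between these groups.

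For siLong1 against siLong2, 6 of 10 genes were called, where 53.7% of all genes were called (26.7% higher, 27% lower), a share near the background. AGO4 was lower in siLong1 by 1.03 (log2, SE 0.09, adjusted p = 5.4e-12), AGO3 by 0.36, AGO1 by 0.21, TNRC6A by 0.19 and DICER1 by 0.12 (adjusted p = 0.030, and 0.078 to 0.27 without either siLong1 library or the first siLong2 library). PRKRA was higher by 0.36 (SE 0.05, adjusted p = 4.8e-07). TNRC6B, TNRC6C, AGO2 and TARBP2 were at -0.04, -0.02, -0.06 and -0.09 and were not called. The median size of change was 0.15 for the 10 genes and 0.23 for the 9117 genes.

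**Figure D4:**
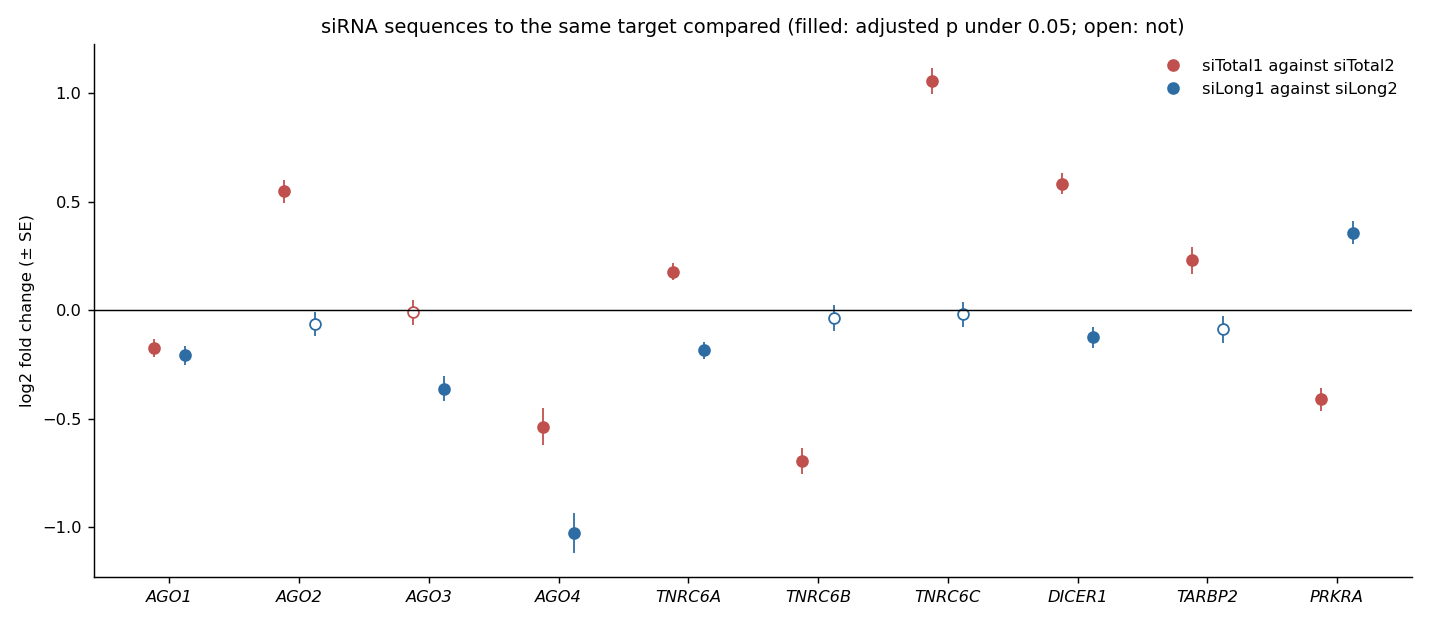
Log2 fold change (vertical axis, with SE) of each gene between siRNA sequences to the same target; filled points have an adjusted p under 0.05. TNRC6C differs most between the siTotal sequences (1.06) and AGO4 between the siLong sequences (-1.03). PRKRA, TNRC6A and DICER1 are called in both pairs with opposite signs, but numbers 1 and 2 are only names within a pair.

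The words that pair with the siRNA seeds were counted in the stretch after the stop codon of the longest such end annotated per gene (GENCODE 29, 13168 tested genes, at least 50 bases). AAGGGAA, for the first listed siTotal sequence, occurred in 6 of 10 members (AGO1, AGO2, AGO3, TNRC6A, TNRC6B and PRKRA) and in 22.0% of all those genes. It occurred in 73.3%, 79.0%, 84.6% and 61.7% of genes with ends as long as those of AGO1, AGO2, AGO3 and TNRC6A, and the shares for TNRC6B and PRKRA are given below. GACGATT, for the second, occurred in AGO2 and TNRC6C and in 1.83% of genes, and in 7.97% and 3.45% of genes with ends as long as theirs. TAGGGTA, for the first siLong sequence, occurred in AGO2 and TNRC6B and in 6.12% of genes, but in 34.8% and 38.05% of genes with ends as long as theirs. TAGCATC, for the second, occurred in AGO1, AGO3 and TNRC6B and in 7.93% of genes, but in 34.0%, 59.0% and 45.1% of genes with ends as long as theirs. AGO4, DICER1 and TARBP2 held none of the 4 words. The ends of AGO1, AGO2, AGO3 and TNRC6B are 10921 to 16755 bases long, and of genes with ends of like length to the one of TNRC6B (113 genes) 80.5% held AAGGGAA, while for PRKRA, with 1177 bases, 13.7% of 2005 such genes did.

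NF-Y, of which NFYA is a subunit, binds CCAAT boxes, so the word CCAAT was searched on both strands (as CCAAT or ATTGG, which can share an A and a T where they meet) in RefSeq promoter windows of 300 bases on GRCh38.p14, from 250 before to 50 after a start. Windows were matched for 9 of the 10 genes, all but AGO2. The word occurred in 9 of their 20 windows (45%) and in 34.6% of all 35116 windows, and in at least 1 window of 7 genes. DICER1, TNRC6C, PRKRA and TARBP2 had several windows, some overlapping, so the count of genes cannot be set against the share of windows. The share of all genes with the word in at least 1 window is not given here. TNRC6B, which had 1 window, held 5 such words, and 0.359% of all windows held 5 or more. These stretches, with the word in capitals, are shown in the direction of the gene because TNRC6B had the most words.
TNRC6B chr22:40044584-40044601, plus strand: atgATTGGctcaggcagc
TNRC6B chr22:40044596-40044620, plus strand: ggcagctcagCCAATcctagctcgt
TNRC6B chr22:40044629-40044653, plus strand: aagcacttaaCCAATgaggggcgaa
TNRC6B chr22:40044658-40044682, plus strand: gcaacgaggaATTGGaggggcggaa
TNRC6B chr22:40044731-40044755, plus strand: ctccctgcggCCAATggagtggggc
The first TARBP2 window held 3 words, and these are shown as the next highest count among the members.
TARBP2 chr12:53500747-53500771, plus strand: cctctccggaCCAATcacaaccttc
TARBP2 chr12:53500829-53500853, plus strand: gtcgaagtaaCCAATctcagtgcac
TARBP2 chr12:53500872-53500896, plus strand: atgggagtaaCCAATgacgccatga
The AGO1 window held a single word, as did that of TNRC6A, and the AGO1 stretch is shown as an example. The word is at -78 from the RefSeq start of that window. The window, at 35882959 to 35883258, is the RefSeq window matched to AGO1. It lies inside the GENCODE span given above, past the outermost start of that span. How much that start is used in these cells was not tested. Windows of other members, such as that of TNRC6A (24729401 to 24729700), lie inside their spans as well.
AGO1 chr1:35883121-35883145, plus strand: gcccctctccATTGGcctttgttgc
The windows of AGO3 and AGO4 held 0 such words, which says only that these letters are not in those windows. A match is a description of sequence and not a measured binding site.

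The other genes of the pathway were taken from 5 lists. Of 9 tested genes for chaperones that load Argonautes and for the C3PO nuclease, 7 fell and 0 rose in siLong1 against mock (background 26.1% lower), with a median of -0.27 against -0.001 for all genes. In siControl 1 rose and 5 fell, in siTotal1 1 and 4, in siTotal2 1 and 6, and in siLong2 3 and 4 (median -0.08). Of all genes 19.5%, 18.7%, 12.6% and 25% were called lower in those groups, and 20.3%, 22.1%, 14.1% and 25.2% higher. Among the tested genes of all 5 lists, FKBP4 and PTGES3, both cochaperones of HSP90, were the 2 called lower in every siRNA group. Of all tested genes, 1.09% were. FKBP4 averaged 442 CPM in mock and 319 to 390 in the siRNA groups, and its fold changes ran from -0.18 in siControl to -0.47 in siLong1 (log2). PTGES3 averaged 791 CPM in mock and 670 to 716 in the siRNA groups, with fold changes between -0.14 in siTotal2 and -0.24 in the libraries labelled siLong2. The groups share the mock libraries, so the repeated direction is not independent.

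Of 25 tested genes of deadenylation, decapping and decay, the steps that follow GW182 recruitment, 17 fell and 4 rose in siLong1 against mock. The background there was 26.1% lower and 26% higher. In the libraries labelled siLong2, 11 fell and 1 rose (background 25% lower and 25.2% higher). In siControl 7 rose and 3 fell (background 20.3% higher and 19.5% lower). In siTotal1 6 rose and 5 fell (22.1% and 18.7%), and in siTotal2 2 rose and 6 fell (14.1% and 12.6%). Medians were -0.15 in siLong1 and between -0.06 and 0.01 in the other groups. Of 21 tested Argonaute cofactors and regulators, 9 rose and 4 fell in siControl (background 20.3% and 19.5%), and 3 rose and 8 fell in siLong1 (26% and 26.1%). In siTotal1 5 rose and 2 fell (22.1% and 18.7%), in siTotal2 2 and 5 (14.1% and 12.6%), and in siLong2 7 and 5 (25.2% and 25%). Of 7 genes of nuclear microRNA processing and export, such as the nuclease DROSHA, 5 were not called in each of siControl, siTotal1 and siTotal2. Of all genes 39.8%, 40.9% and 26.7% were called there. In siLong1 3 rose and 1 fell (background 26% and 26.1%) and in siLong2 0 rose and 3 fell (25.2% and 25%), counts close to the background. Of the germline PIWI Argonautes, 2 of 4 had enough reads to be tested, with at most 44 reads in any library.

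**Figure D5:**
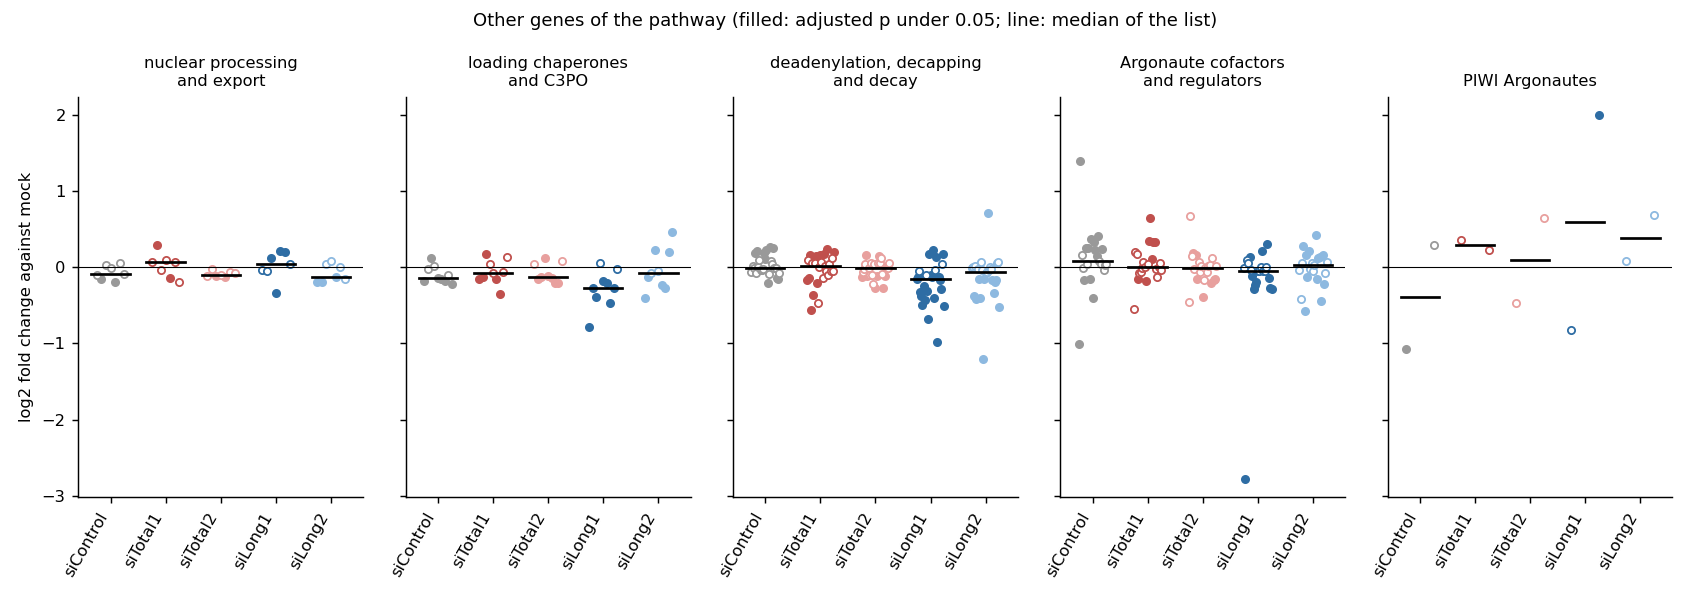
Log2 fold change against mock (vertical axis) of each tested gene in 5 pathway lists, by siRNA group; filled points have an adjusted p under 0.05 and lines are list medians. The siLong1 medians of the loading chaperones (-0.27) and of the decay genes (-0.15) lie below 0.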

How the data were processed

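Gene-level RNA-seq of 12 HCT116 libraries was used, with groups taken from the titles. Per the submitters' processing notes, reads were aligned to hg19, and the tools named are STAR 2.4.0f1 and featureCounts; no release or strand option is known here. The authors deposited whole-number read counts for each Ensembl identifier. There were 0 columns from other samples. Symbols were found for 52181 of 63677 identifiers; positions and lengths come from GENCODE 29 (GRCh38), matched by identifier, not by position.

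The filter filterByExpr (count 10, total 15), TMM factors and a robust quasi-likelihood model of all 6 groups came from edgeR 4.0.16 under R 4.3.3, with 6 residual degrees of freedom and a common coefficient of variation of 3.57%. P-values were adjusted by Benjamini-Hochberg over 17730 genes, and the procedure was tested on simulated data. Each SE is the absolute log2 fold change divided by the square root of the test's F statistic, not a separately fitted value. Duplicates differed by more than counting noise (chi-square per degree of freedom 1.83 to 7.34). Alternatives were DESeq2 1.42.0, other scalings and filters, a replicate block, left-out libraries and, chosen after seeing the data, leaving out both siLong2 libraries. All members are named, with pathway genes called one way in every siRNA group (up to 4 each way) and the 3 genes most like the member of widest range, of which 1 is not reported here. The members and lists were chosen with earlier results of these data known. Protein identity of the paralogs was not computed here.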

Additional observations from a re-analysis of the deposited data

How the results depend on the processing

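Of 59 gene changes that were called, 0 changed direction under any alternative run; 1067 of their values kept the call and 75 lost it. Of 41 changes not called, 32 values changed sign, and 25 gained a call with their sign kept. PRKRA in siTotal against siLong, without both siLong2 libraries, changed sign and also gained a call (adjusted p = 0.0081). The counts of called genes that follow are given without the share of all genes called in the same run. With DESeq2, 4 genes were called in siLong1 against mock, and with each siRNA sequence as 1 sample, 0 were called in all siRNA groups against mock and 0 in NFYA siRNA groups against siControl. The replicate block gave 5, 8, 3, 7 and 6 called genes for siControl, siTotal1, siTotal2, siLong1 and siLong2 against mock, and 5, 5, 6, 9 and 6 for the other comparisons in the order reported; the block added TNRC6B in siLong2 (-0.12, adjusted p = 0.043) and changed no other call, and replicate numbers did not pair the samples (r of their deviations from -0.135 to 0.145 over 15 pairs of groups). Leaving out 1 library at a time gave 3 to 6 called genes in siControl, 2 to 5 in siTotal2 and 4 to 7 in siLong1 against mock. Log2 values that changed sign without one library were AGO3 in siTotal1 (-0.036 to 0.068), siTotal2 (-0.077 to 0.10) and siLong2 (-0.022 to 0.068), PRKRA in siLong1 (-0.023 to 0.12), AGO4 in siLong2 (-0.13 to 0.055), TNRC6C in all siRNA groups (-0.029 to 0.093), all against mock, TNRC6A in NFYA siRNA groups against siControl (-0.015 to 0.0019), TNRC6B (-0.039 to 0.065) and DICER1 (-0.019 to 0.082) in siTotal against siLong, AGO3 in siTotal1 against siTotal2 (-0.10 to 0.078) and TNRC6C in siLong1 against siLong2 (-0.071 to 0.014). AGO3 was at -0.028 in siTotal1 against mock with upper-quartile scaling; without the low-count filter TNRC6A was at -0.0072 in NFYA siRNA groups against siControl and AGO3 at 0.00086 in siTotal1 against siTotal2. Without both siLong2 libraries, TNRC6C was at -0.00012 in all siRNA groups against mock, TNRC6A at -0.036 and PRKRA at 0.042 in NFYA siRNA groups against siControl, and TNRC6A at 0.037 and PRKRA at -0.15 in siTotal against siLong. Per kb of coding sequence, mock shares were 46.2% AGO1, 29.4% AGO2, 18.4% AGO3 and 5.99% AGO4, and 51.1% TNRC6A, 34.7% TNRC6B and 14.2% TNRC6C. The cause was not tested. The depth limit is highest for AGO4, with 263 reads in its lowest library.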
